A study of Spirodela polyrhiza with 4 samples.

Results

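In line 9509 of the duckweed *Spirodela polyrhiza*, 1414 of the 5726 deposited H3K9me2 peaks (24.7%) were of middle length and lay close to another peak. These peaks are at least 1000 bp and under 5000 bp long, and no more than 1000 bp separate each of them from the nearest other peak on the same chromosome. They were chosen by length and gap, both of which come from the peak list itself. When peaks separated by gaps of at most 1000 bp are joined, they form chains, and 937 chains held at least 1 of these peaks. The other 1052 mid-length peaks, which had no peak within 1000 bp, served for comparison.

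The peaks came from whole plants of line 9509, clonally grown and crosslinked, from which chromatin was pulled down with an antibody against H3K9me2. The series has 4 samples, of which only this ChIP library, 1 sample without a replicate, was used. The 9509 input and the MethylC-seq samples of lines 7498 and 9509 were not analysed here. Whole plants mix all cell types of the frond and root, so a peak of low enrichment in all cells and one of high enrichment in some cannot be told apart. The list carries no read counts, so the depth behind a single peak is unknown. Positions are those of the authors' list on the line 9509 genome, with a build name not given in the sources used here. This list holds 20 sequences, called chromosomes here. No genome sequence or annotation was used, so the sequences under the peaks and the genes or repeats there were not analysed here.

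H3K9me2, the dimethylated lysine 9 of histone H3, marks silenced chromatin in plants. SUVH histone methyltransferases such as KRYPTONITE of *Arabidopsis thaliana* write it, and CHROMOMETHYLASE 3 binds it and methylates cytosines at CHG sites, which in turn draw the histone methyltransferases. The mark typically covers transposons, among them LTR retrotransposons, whose full copies are several kilobases long with a terminal repeat at each end.

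The mid-length peaks in chains made up 3.40 Mb, or 25.1% of all peak length. The chains that held them took in 833 short peaks (under 1000 bp) and 279 long peaks (5000 bp or more) as well, 2526 peaks in all. Together these chains spanned 7.02 Mb, of which 0.817 Mb (11.6%) was gap, and they held 45.8% of the peak length of the list.

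A close neighbour was about as frequent for mid-length peaks as for other lengths. It was found for 57.3% of the mid-length peaks (95% Wilson interval 55.4 to 59.3%), 55.0% of the 2511 short peaks (53.0 to 56.9%) and 56.6% of the 749 long peaks (53.0 to 60.1%). These intervals overlap, and like all intervals here they cover counting error only, since peaks of 1 library are not independent samples. Among mid-length peaks the percent had no steady trend with length. It was lowest from 2000 to under 3000 bp, at 54.4% (50.5 to 58.3%), and highest from 1500 to under 2000 bp, at 61.8% (57.3 to 66.2%). That range was wider than the one between short, mid-length and long peaks, and the intervals overlapped only slightly.

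**Figure D1:**
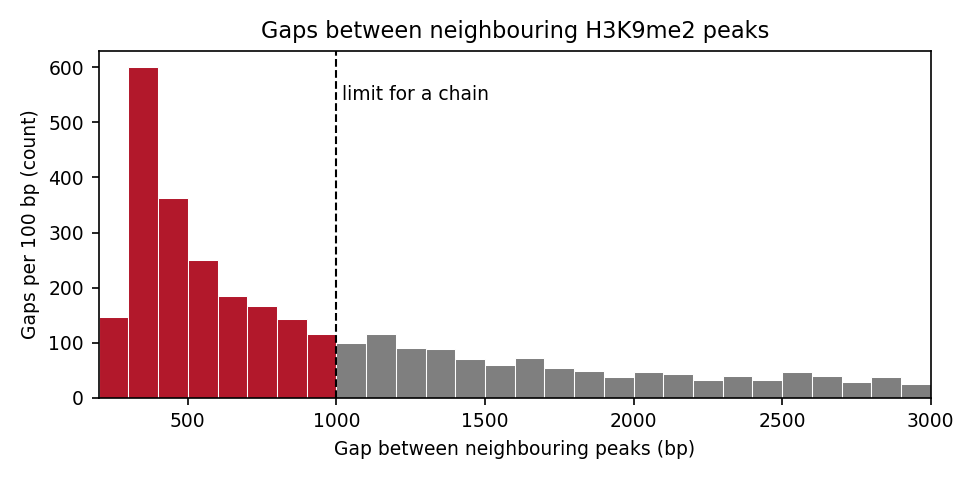
Number of gaps between neighboring H3K9me2 peaks by gap width, in steps of 100 bp up to 3000 bp, with the gaps that join peaks into chains in red and wider gaps in gray. The count is highest at 301 to 400 bp with 600 gaps and runs without a break across the limit of 1000 bp (dashed line), with 115 gaps in the last step below it and 99 in the first step above it. No gap is under 285 bp, so the step from 201 to 300 bp, with 147 gaps, is cut short. Its count cannot be set against those of the full steps.

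The nearest peak lay a median of 422 bp from a mid-length peak in a chain (quartiles 335 and 610 bp), and for 62.8% of them it lay within 500 bp. The smallest gap was 285 bp, which is also the smallest between any neighboring peaks of the list. Of the 1414 peaks, 302 (21.4%) had a close peak on both sides, 543 only on the side of lower coordinates and 569 only on the side of higher coordinates. The other mid-length peaks had their nearest peak at a median of 3130 bp (quartiles 1535 and 9630 bp), and 35.4% of them had it no more than 2000 bp away.

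The limit of 1000 bp falls on a smooth slope of the gap distribution. Just inside it were the peaks on chromosome 1 from 5303793 to 5306076, with a gap of 994 bp and a fold enrichment of 2.62, on chromosome 6 from 4943017 to 4944216 (991 bp, fold enrichment 2.05) and on chromosome 17 from 2921935 to 2923104 (991 bp, fold enrichment 1.84). Just outside were the peaks on chromosome 2 from 6730150 to 6732736, with a gap of 1005 bp and a fold enrichment of 2.53, and a pair on chromosome 3 that lay 1011 bp apart, from 6818171 to 6821163 (fold enrichment 2.64) and from 6822175 to 6823224 (3.43). At the length limits, the shortest peak inside had 1000 bp (fold enrichment 2.44) and the longest, on chromosome 11 from 3542587 to 3547585, had a fold enrichment of 3.45, whereas the nearest peaks in chains outside had 997 bp (2.13) and 5009 bp (3.46).

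The chains were mostly small. Of the 937 chains, 574 (61.3%) had 2 peaks, 208 had 3 and 85 had 4, and the largest had 11. A single mid-length peak was present in 558 chains, 2 in 299, 3 in 66, and 4 or more in 14. The median span of a chain was 5406 bp (quartiles 3604 and 9376 bp, range 1748 to 51387 bp), and peaks covered a median of 87.8% of it (quartiles 80.8 and 92.1%). The gap limit bounds this coverage from below, so high values follow in part from the rule.

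A single mid-length peak with only short peaks beside it was the most frequent kind of chain, found 404 times (43.1%). In 194 chains (20.7%) all peaks were mid-length, in 103 (11.0%) several mid-length peaks were mixed with short ones, and in 236 (25.2%) there was at least 1 long peak. Counted over the 1716 close neighbors of the mid-length peaks, 41.6% were short, 43.7% mid-length and 14.7% long. These percents are near the makeup of the whole list, which is 43.9% short, 43.1% mid-length and 13.1% long. The simplest orders along the chromosome were about equally frequent in both directions, with 167 chains of a mid-length peak followed by a short one and 148 of the opposite order, and 51 of a long peak followed by a mid-length one and 40 of the opposite.

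Joining brings many of these chains to the length of a long peak. Of the 701 chains without any long peak, 274 (39.1%, 95% Wilson interval 35.5 to 42.7%) spanned 5000 bp or more. Their median span was 4321 bp, and the widest, on chromosome 5, spanned 24127 bp. Chains with a long peak had a median span of 13089 bp.

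The fold enrichment of mid-length peaks was nearly the same in chains and elsewhere. It is the authors' MACS2 value for the signal of a peak over the estimated background, without a statement of whether the input gave that background, and comes from the same library and calling as the positions that chose the peaks, so it is described without a test. The median was 2.33 in chains (quartiles 2.03 and 2.76, range 1.61 to 5.30), against 2.34 for the other mid-length peaks (quartiles 2.04 and 2.77, range 1.63 to 5.89). A fold enrichment of at least 2 was reached by 1101 of the 1414 (77.9%) in chains and by 819 of the 1052 others (77.9%), and in the whole list by 55.7% of peaks. A q under 1e-05 was reached by 704 (49.8%) in chains and 526 (50%) of the others, and in the whole list by 36.0%. The median −log10 q was 4.979 in chains and 4.998 elsewhere. In length, too, the groups were alike, with a median of 2112 bp in chains (quartiles 1432 and 3208 bp) and 2074 bp elsewhere (quartiles 1404 and 3119 bp).

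Within bins of length, the median fold enrichment of peaks in chains was within 0.05 of that of the others in 4 of 5 bins. From 1000 to under 1500 bp it was 2.02 for 387 peaks in chains and 2.04 for 317 others, and from 4000 to under 5000 bp it was 2.76 for 185 in chains and 2.79 for 131 others. The widest difference was from 3000 to under 4000 bp, with 2.61 for 229 peaks in chains and 2.78 for 152 others. There the median −log10 q was 6.95 in chains and 7.83 elsewhere. The quartile ranges of fold enrichment (2.31 to 3.11 in chains, 2.40 to 3.17 elsewhere) overlapped, but they give the spread of single peaks and do not gauge a difference between medians. The median was lower in chains in every bin except that from 2000 to under 3000 bp (2.45 in chains, 2.42 elsewhere). Fold enrichment rose with length in both groups alike (Spearman's rho 0.53 over 1414 peaks in chains and 0.54 over 1052 others, across peaks of 1 library).

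**Figure D2:**
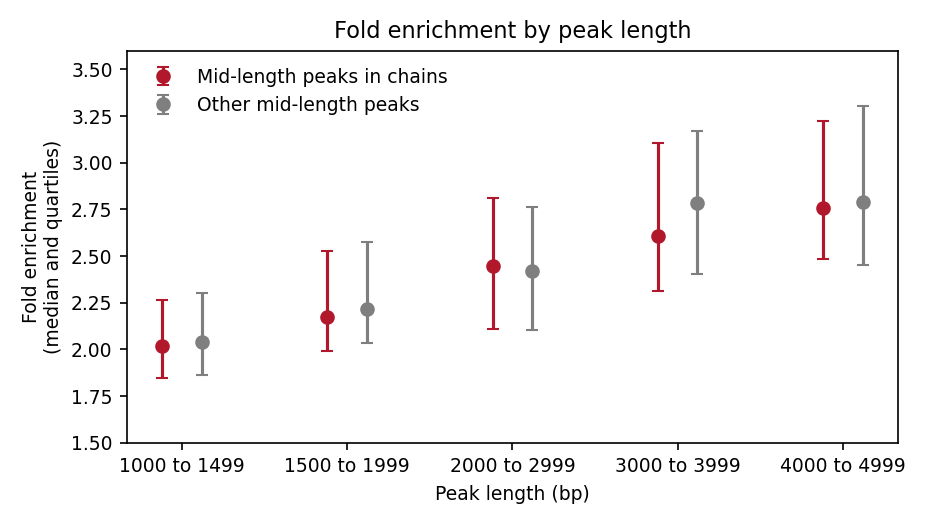
Fold enrichment of mid-length H3K9me2 peaks in 5 bins of peak length (bp), with peaks in chains in red, left of the other mid-length peaks in gray. Points are medians and bars run between the quartiles. From the shortest to the longest bin the median goes up to 2.76 in chains and 2.79 elsewhere. In every bin the 2 quartile ranges, which give the spread of single peaks, overlap.

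The closeness and number of neighbors made little difference. Mid-length peaks with a gap under 400 bp had a median fold enrichment of 2.35 (n = 624), those with 400 to under 600 bp had 2.31 (n = 426), and those with 600 to 1000 bp had 2.31 (n = 364). Peaks with a close neighbor on both sides had 2.36 (n = 302), against 2.31 for those with one on 1 side (n = 1112). The medians differed more by kind of chain. The highest was 2.46, in chains with a long peak (n = 346, quartiles 2.06 and 2.95). The others were 2.35 among short and mid-length peaks (n = 247), 2.30 beside short peaks only (n = 404) and 2.29 among mid-length peaks only (n = 417). Each of these medians lies within the quartiles of the other groups. Quartiles give the spread of single peaks, so this does not gauge a difference between medians.

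Neighbors in a chain were not alike in fold enrichment. Mid-length peaks were higher than a close short neighbor in 614 of 713 pairs (86.1%), with medians of 2.31 for the mid-length and 1.82 for the short peaks. They were higher than a close long neighbor in 48 of 253 pairs (19.0%), with medians of 2.43 for the mid-length and 3.10 for the long peaks. That order follows the rise of fold enrichment with length in the whole list, where the median is 1.81 for short and 3.10 for long peaks. Among the 375 pairs of mid-length peaks that lay side by side in a chain, the fold enrichments of the partners were hardly related (Pearson's r = 0.09, Spearman's rho = 0.05, across pairs that share a library and in part share peaks), and they differed by a median of 0.43. For 685 pairs of neighboring mid-length peaks more than 1000 bp apart, r was 0.08 and the median difference 0.45. Between mid-length peaks and their close short neighbors r was 0.09 (rho 0.03, 713 pairs). With close long neighbors it was somewhat higher, at 0.16 (rho 0.16, 253 pairs).

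**Figure D3:**
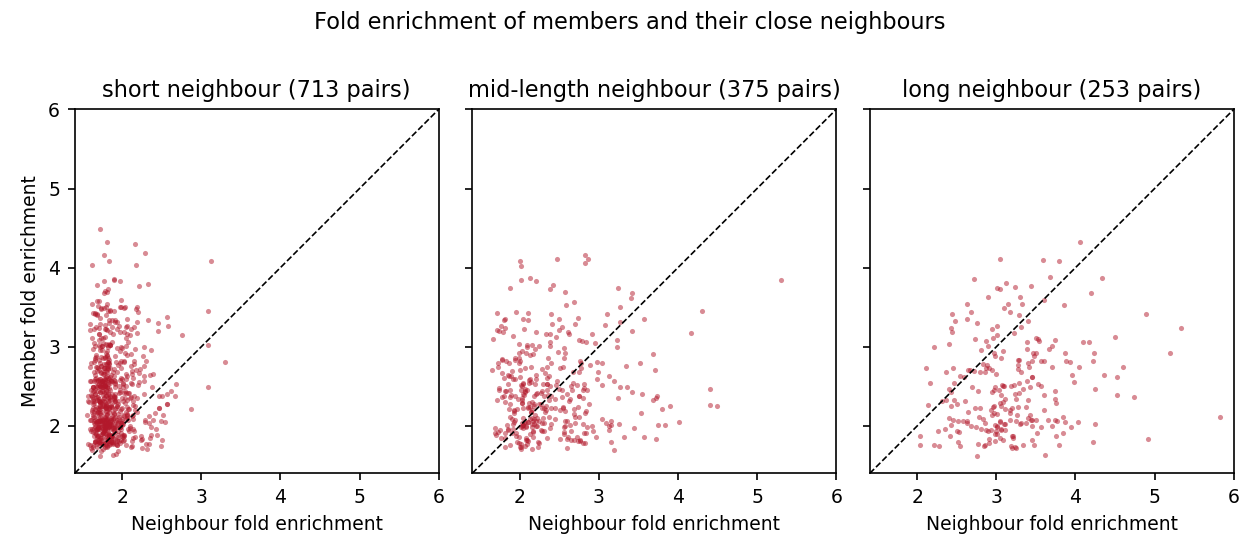
Fold enrichment of mid-length peaks in chains (y axis) against that of a close neighbor within 1000 bp (x axis), for 713 short, 375 mid-length and 253 long neighbors. Each point is a pair, and on the dashed line both are equal. Most points lie above the line for short neighbors (614 of 713) and below it for long neighbors (205 of 253).

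In 696 of the 937 chains (74.3%), the peak of highest fold enrichment was a mid-length one. The longest peak was mid-length in the 701 chains (74.8%) without a long peak, which follows from the rule. Each chain counted holds a mid-length peak by choice, so both counts are descriptions. The longest peak of a chain was also the most enriched in 708 chains (75.6%).

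The 5 chains with the most mid-length peaks show how uneven a chain can be. The chain on chromosome 17 from 2921935 to 2940222 had 6 mid-length peaks and 1 short peak over 18288 bp, 81.6% of it covered. Along the chromosome its mid-length peaks had fold enrichments of 1.84, 2.60, 2.35, 3.73, 2.38 and 1.96, with the highest in the middle, in the peak from 2930774 to 2933667. The second, on chromosome 5 from 4388485 to 4412611, had 11 peaks, 5 of them mid-length, over 24127 bp. Its first 4 mid-length peaks, from 4389702 to 4404556, had fold enrichments of 3.27, 3.08, 2.75 and 3.34, whereas the last, from 4405427 to 4406664, had 1.80, and 5 short peaks of 1.64 to 1.92 followed it.

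The third, on chromosome 6 from 3797369 to 3813734, had no peak above 2.60. Its 5 mid-length peaks reached 2.59, 1.92, 1.72, 2.60 and 1.80. The fourth, on chromosome 4 from 7266976 to 7301813, had 4 mid-length, 4 short and 2 long peaks, and its mid-length peaks of 2.86, 1.94, 3.21 and 2.50 all lay on one side of the long ones, of which the longer, of 8005 bp, had 4.19. The fifth, on chromosome 16 from 3440498 to 3464692, had 4 mid-length peaks of 3.29, 2.69, 1.91 and 1.96 before a long peak of 10296 bp with 2.81. It was chosen as the chain of second longest span among the 11 chains with 4 mid-length peaks.

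The chains of longest span had 1 to 3 mid-length peaks each, and long peaks took up 72.8 to 82.2% of their span. The longest, on chromosome 13 from 6225663 to 6277049, spanned 51387 bp with 4 long, 2 short and 2 mid-length peaks and was 92.2% covered. Its long peaks had 2.88 to 4.52 and its mid-length peaks 2.62 and 3.12, with 3.12 at the far end, from 6275614 to 6277049. The next, also on chromosome 13, from 5143481 to 5182740, spanned 39260 bp, and its mid-length peaks had 3.30 at its start and 1.94 between 2 long peaks. The third, on chromosome 5 from 4282125 to 4320035, began with a mid-length peak of 2.51 and ended with a pair of 1.90 and 1.69. The other two lay on chromosome 14 from 3492054 to 3529614 and on chromosome 6 from 4844153 to 4880581, with 2 mid-length peaks (2.97 and 2.14) and 1 (2.04). Of these 10 chains, 7 lay in the 500 kb of their chromosome that was most covered by peaks. Those stretches held 27.8% of all mid-length peaks in chains and 22.3% of all peaks. Chains of long span also add to the coverage that chose the stretches.

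**Figure D4:**
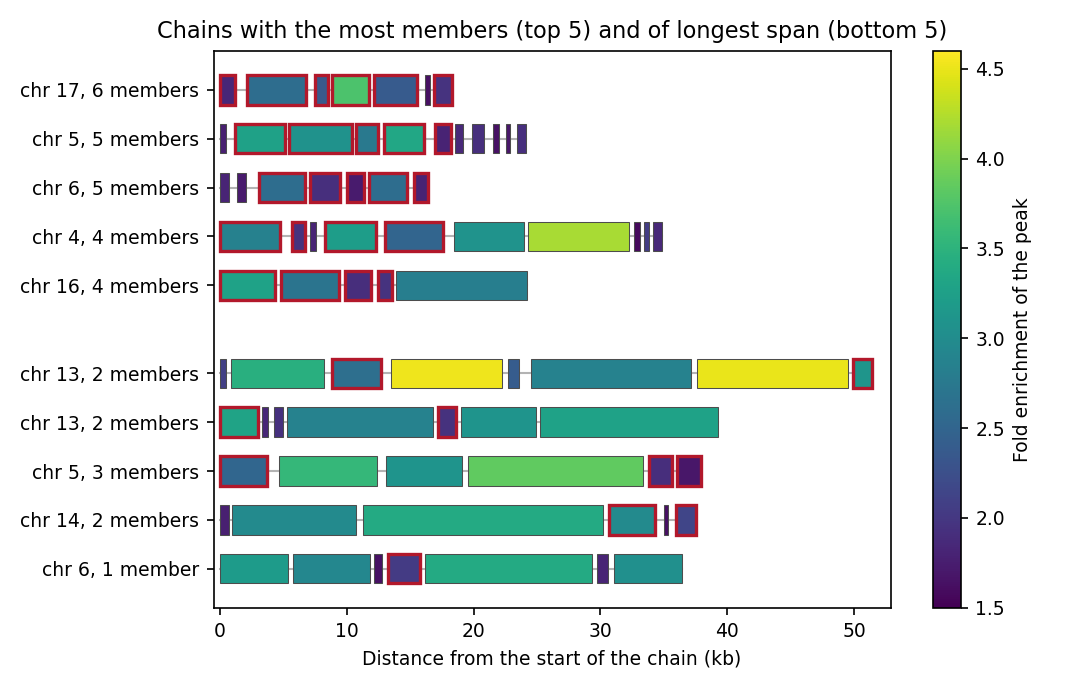
The 5 chains with the most mid-length peaks (top, 6 to 4 of them) and the 5 of longest span (bottom, 51387 to 36429 bp), drawn to scale as distance in kb from the start of the chain. Each box is a peak, colored by fold enrichment, and red outlines mark the mid-length peaks. Mid-length peaks take up 41.4 to 79.2% of the span of the upper chains, and long peaks 72.8 to 82.2% of the span of the lower ones.

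The most enriched mid-length peak in a chain had a fold enrichment of 5.30 and a −log10 q of 28.3. It lay on chromosome 13 from 6202227 to 6204216, was 1990 bp long, and its only partner, 509 bp away from 6198765 to 6201717, had 3.85. The next was the peak on chromosome 12 from 1757435 to 1761049 (4.49), between a mid-length peak of 2.25 and a short one of 1.73. On chromosome 8 there were 2, from 245209 to 247985 (4.41) and from 98998 to 102928 (4.40). The first of these stood in a chain of 3 mid-length peaks, of which the outer ones had 4.11 and 4.41 and the middle one 2.47. The fifth, on chromosome 11 from 3165935 to 3170276 (4.32), was separated from a long peak of 3.28 by 2 short ones. All 5 lay in the most covered 500 kb of their chromosome, where 27.8% of all mid-length peaks in chains lay.

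At the low end were peaks on chromosome 3 from 6178922 to 6179969 (1.61), beside a long peak of 2.75, on chromosome 7 from 5526427 to 5528024 (1.62), beside 2 short peaks, and on chromosome 4 from 8765083 to 8766571 (1.63). The first and last of these had a −log10 q of 1.26 and 1.34, but the one on chromosome 7 had 4.95 at almost the same fold enrichment.

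All 20 chromosomes had chains with mid-length peaks, from 23 to 66 chains and from 32 to 94 mid-length peaks. Chromosome 6 had the highest percent of its mid-length peaks in chains, 62.9% (90 of 143, 95% Wilson interval 54.8 to 70.4%), and chromosome 19 the lowest, 45.1% (32 of 71, 34.0 to 56.6%), followed by chromosome 13 with 45.7% (48 of 105, 36.5 to 55.2%). The mean over chromosomes was 56.7% (SD 5.41, n = 20 chromosomes). On 18 of 20 chromosomes the interval held the overall 57.3%, and chromosomes next to each other in this order had overlapping intervals. Across the 20 chromosomes, the percent did not go up with the number of peaks per Mb (Pearson's r = −0.22, Spearman's rho = −0.34) or with the percent of the chromosome covered by peaks (r = −0.30, rho = −0.44), both given as a description. For both, the end of the last peak stood in for the length of the chromosome, since no genome sequence was used. The median fold enrichment of mid-length peaks in chains was higher than that of the others on 10 chromosomes and lower on 10, with a mean difference of −0.02 (SD 0.13, n = 20).

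**Figure D5:**
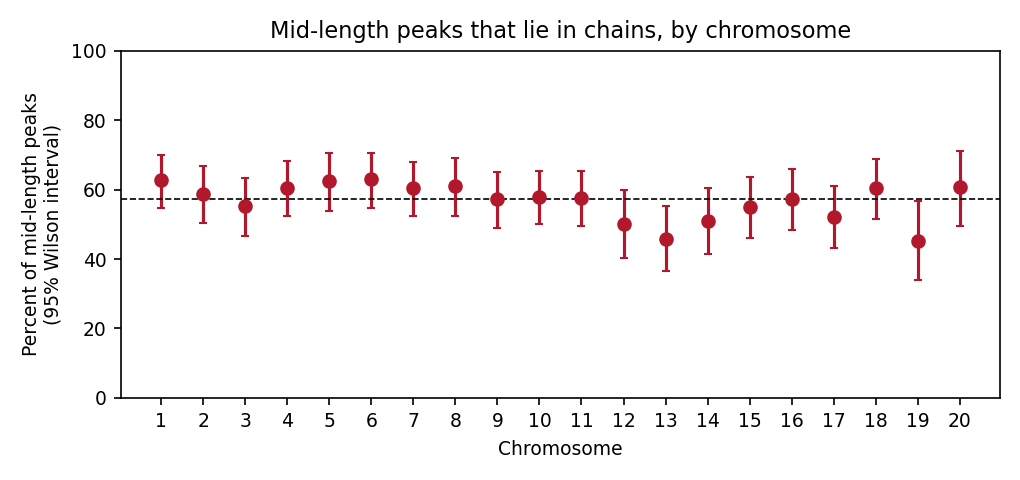
Percent of mid-length H3K9me2 peaks that lie in chains on each of the 20 chromosomes, with 95% Wilson intervals as bars and the percent over all chromosomes, 57.3%, as a dashed line. Values run between 45.1% on chromosome 19 and 62.9% on chromosome 6, and 18 of 20 intervals cross the line.

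Within chromosomes, mid-length peaks were more often in chains in the most covered stretch than elsewhere. In the 500 kb of each chromosome most covered by peaks, 393 of 596 mid-length peaks (65.9%, 95% Wilson interval 62.0 to 69.6%) lay in chains, against 1021 of 1870 (54.6%, 52.3 to 56.8%) on the rest of the chromosomes. These stretches were chosen by coverage, to which the same peaks add, so the difference is a description. Mid-length peaks in chains were longer inside the stretches, with a median of 2449 bp inside and 1971 bp outside, whereas the other mid-length peaks had 2118 bp inside and 2055 bp outside. Fold enrichment was higher inside for both groups, at 2.48 inside and 2.27 outside in chains, and at 2.45 inside and 2.30 outside for the others.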

How the data were processed

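H3K9me2 was measured in 1 ChIP-seq library of line 9509. The authors trimmed reads with Trimmomatic, mapped them with bowtie1 (at most 2 mismatches, reads with several positions discarded), sorted them with SAMtools, used Picard against duplicates and ran MACS2 in its broad mode (tool versions and genome build: not given in the sources used here). Among the deposited values of a peak are its position, the MACS2 fold enrichment (a ratio over the background), −log10 p and −log10 q, and a deposited score (the −log10 q times 10, cut to a whole number), which was not used. Stretches of repeats that are identical over the length of a read carry no uniquely mapped reads. Broad calling merges nearby enriched stretches, so both can set where a peak ends. Their part in the gaps was not tested.

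Gaps, chains, medians and Wilson intervals were computed with Python 3.11.15, pandas 2.3.3, NumPy 2.4.6 and SciPy 1.17.1, with plots in Matplotlib 3.10.9. The chain building was tested on simulated peaks. The densest 500 kb is the run of 10 windows of 50 kb with the highest coverage, and peaks were assigned to it by midpoint. No test was made, since every value comes from the library that chose the peaks. Named are the 5 chains with the most mid-length peaks, the 5 of longest span, the 5 highest and 3 lowest mid-length peaks by fold enrichment, those at the limits and the extreme chromosomes. Members, rule and alternatives were chosen with earlier results of these data known.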

Additional observations from a re-analysis of the deposited data

How the results depend on the processing

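The difference in median fold enrichment between mid-length peaks in chains and the others stayed between −0.05 and 0.06 under all 9 alternatives, and that in median length between −84 and 171 bp. Each is within the SD over 20 chromosomes (0.13 and 312 bp), which also served as the tolerance for spans and coverage. For these differences that SD was far wider than the reported values (−0.017 and 38 bp), so they could hardly have counted as moved. Both took either sign across the alternatives. A percent counted as kept within its Wilson interval, and a count within 1.5 times. On these terms 40 of 72 values were kept, among them all 9 for the difference in fold enrichment and all 9 for that in length. The other 32 moved, so the number and percent of peaks in chains depend on the list and the limit. With a gap limit of 500 bp there were 888 mid-length peaks in chains, 36.0% of the mid-length peaks, with chains 90.9% covered and 20.7% of these peaks in a chain with a long peak. With 2000 bp it was 72.4%, with a median span of 6458 bp, 82.5% covered and 30.5%. Stricter lists hold fewer peaks by construction. With q under 0.01 it was 46.8%, with chains 90.1% covered and 27.4%. With q under 1e-05 there were 307 peaks (24.96%) in 201 chains, with a median span of 9863 bp, 94.5% covered and 47.2%. With at least 2-fold enrichment there were 725 (37.8%) in 453 chains, with a median span of 7357 bp, 92.0% covered and 32.3%. When short peaks did not count, there were 894 (36.3%) in 490 chains, with a median span of 7862 bp, 92.5% covered and 32.6%. Without the densest 500 kb of each chromosome it was 54.6%, with 19.7% in a chain with a long peak. With lengths from 1500 to under 4000 bp there were 842 peaks. No paired analysis was possible because there is 1 library.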

Other observations

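In the list, fold enrichment and −log10 q go together (Spearman's rho 0.97 over the 1414 mid-length peaks in chains), but a few peaks depart from this. Only 17 of the 2536 peaks with a fold enrichment under 2 had a −log10 q over 5, limits that were set after the values were seen. They had fold enrichments of 1.64 to 1.93, and the 1185 other peaks in the same range of −log10 q (5.25 to 10.3), which by this choice have at least 2, had a median of 2.68 (quartiles 2.51 and 2.85). Of the 17, 16 lay in 3 places of about 25 kb, on chromosome 5 from 4408386 to 4433040, chromosome 7 from 5523943 to 5548376 and chromosome 20 from 3967796 to 3992898, and the other on chromosome 13 from 4356034 to 4357649.

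Mid-length peaks in chains lay in all 3 places, where they were 7 of 26 peaks (26.9%, against 24.7% in the whole list), and 5 of these 7 are among the 17. The place on chromosome 7 held 12 peaks with fold enrichments of 1.62 to 2.20 and −log10 q of 4.91 to 17.0. It includes a chain of 8 peaks whose 3 mid-length peaks, from 5537104 to 5538598, 5543492 to 5544730 and 5545499 to 5546988, had fold enrichments of 1.86, 2.20 and 1.93 with −log10 q of 9.03, 17.0 and 10.3. It also includes the mid-length peak of second lowest fold enrichment in a chain, from 5526427 to 5528024. On chromosome 20, mid-length peaks from 3980707 to 3981733 (1.88, −log10 q 8.31) and from 3988091 to 3992898 (1.76, −log10 q 7.70) flanked a long peak of 2.03 with 13.6. On chromosome 5 the place begins inside the chain of 11 peaks described above, of which the last 4 short peaks are among the 17, while none of its 5 mid-length peaks is. The files used here hold neither pileup nor input values, so the signal and background behind these peaks were not examined.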
